A study of Mus musculus with 6 samples.

Results

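Solute carriers are membrane proteins that move nutrients, ions, vitamins and metabolites across the plasma membrane and the membranes of mitochondria, lysosomes and the Golgi. The 172 genes described here are the solute carriers expressed in MLL-AF9-transformed mouse hematopoietic cells. They were chosen by name and by level: every row whose symbol has the form Slc, a family number, a and a member number, with at least 1 CPM (counts scaled to library size) in at least 3 of the 6 libraries. Of 24062 rows in the count table, 331 had such a symbol, 179 of these reached the minimum, and 7 that carry glucose, lactate, iron or citrate were set aside by the rule. Another 152 rows were below the minimum, 72 of them without a read in any library.

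The KO-labelled group came from A20 f/f Rosa Cre-ER mice and the WT-labelled group from A20 +/+ Rosa Cre-ER mice, with 3 libraries each. In both groups lineage-negative hematopoietic cells had been transduced by a retrovirus with the leukemia fusion oncogene MLL-AF9. Both carried the tamoxifen-activated Cre, both received 1 µM 4-hydroxytamoxifen for 48 h, and both grew in serum with human IL-6, mouse IL-3 and mouse SCF, so the labels separate the groups by the floxed A20 alleles alone. The comparison asks how loss of A20, the product of Tnfaip3, a ubiquitin-modifying protein and inhibitor of NF-κB signalling, changes transcript levels. The labels do not say whether the 3 libraries of a group came from separate animals or cultures, so p-values rest on a spread among libraries that may be technical.

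The targeted gene ran against its label. Tnfaip3 stood at 100.1, 74.1 and 79.1 CPM in KO-labelled against 7.39, 8.67 and 8.24 CPM in WT-labelled libraries, and the counts cover all of its exons together, so they do not measure the deletion. The groups also differed in donor sex by their transcripts. Xist averaged 3.18 CPM in KO-labelled and 1588 CPM in WT-labelled libraries. The Y-linked Ddx3y averaged 83.3 CPM in KO-labelled and 0.467 CPM in WT-labelled libraries. By library, Xist had 0, 110 and 80 reads in KO-labelled and Ddx3y 0, 14 and 12 reads in WT-labelled replicates 1, 2 and 3. The source of these reads was not tested, and the few reads of a member in 1 group may share it. Sex and label cannot be told apart here, and the groups are called by their labels throughout. Libraries held 16113320 to 25415274 counted reads, so that 3 reads, the level used as a floor, were worth 0.125 to 0.179 CPM. In each group replicate 1 differed from the other 2 libraries far more than these did from each other: over the solute carriers, chi-square per degree of freedom between the read counts of 2 libraries was 24.7 to 28.4 for KO-labelled pairs that included replicate 1 and 1.44 for KO-labelled replicates 2 and 3. In the WT-labelled group it was 104 to 110 for pairs with replicate 1 and 6.28 for replicates 2 and 3. Counts of called genes are therefore also given without single libraries and with replicates 2 and 3 alone.

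Many amino acid carriers are exchangers, which import an amino acid as another leaves, and several of these are pairs of a transport subunit with the common subunit Slc3a2. Members of the Slc25 family sit in the inner mitochondrial membrane and link the cytosol with the matrix. Members of Slc39 bring zinc and related metals into the cytosol, and members of Slc30 take zinc out of it. In leukemia cells the cystine, glutamine and leucine carriers are known for supplying growth and glutathione synthesis.

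The upstream sequences of 3 members are shown because they hold letters that match a site for NF-κB, the pathway that A20 restrains, or for the C/EBP-ATF composite element of the amino acid response (TGATGNAA). They are the 250 bases before the RefSeq start on GRCm38.p6, 5′ to 3′ on the gene's strand, with matches on either strand in capitals. The transcripts of Slc7a11 (chr3:50443614-50443863, minus strand) and Slc43a2 (chr11:75531444-75531693, plus strand) were higher, and those of Slc4a8 (chr15:100761497-100761746, plus strand) were lower, in the KO-labelled libraries. These 3 were chosen after their values were seen.
Slc7a11: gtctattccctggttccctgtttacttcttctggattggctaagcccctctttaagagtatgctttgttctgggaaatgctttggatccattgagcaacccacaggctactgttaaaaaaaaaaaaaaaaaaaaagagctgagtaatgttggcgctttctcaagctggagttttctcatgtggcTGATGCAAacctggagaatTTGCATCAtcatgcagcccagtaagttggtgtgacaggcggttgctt
Slc43a2: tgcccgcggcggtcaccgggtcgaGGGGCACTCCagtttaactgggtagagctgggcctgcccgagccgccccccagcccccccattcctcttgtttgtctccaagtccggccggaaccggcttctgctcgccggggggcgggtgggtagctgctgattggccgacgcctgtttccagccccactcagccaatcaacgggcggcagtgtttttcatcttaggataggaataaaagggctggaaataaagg
Slc4a8: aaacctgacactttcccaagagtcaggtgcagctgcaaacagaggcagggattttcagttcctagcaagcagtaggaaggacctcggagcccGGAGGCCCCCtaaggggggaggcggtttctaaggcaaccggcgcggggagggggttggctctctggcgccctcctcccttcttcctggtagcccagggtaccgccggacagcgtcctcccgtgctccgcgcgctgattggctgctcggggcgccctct
Capitals mark 2 matches to the C/EBP-ATF element in Slc7a11, and 1 match to the NF-κB site in Slc43a2 and in Slc4a8.

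RefSeq windows were found for 132 of the 172 members, and both strands of each full window, the 250 bases before a start and the 50 after it, were searched there and in 16631 genes in all. A match to the NF-κB site, searched in its general form, occurred in 9.09% of the solute carriers and in 9.08% of all genes. It was present in 17.2% of the 29 members called higher, in 14.3% of the 14 called lower and in 5.62% of the 89 not called. These shares rest on 5, 2 and 5 genes. The C/EBP-ATF element occurred in 4.55% of the solute carriers and in 3.49% of all genes, with 10.3% of those called higher, 14.3% of those called lower and 1.12% of those not called. The shares by call rest on 3, 2 and 1 genes. The short core of the metal response element (TGCNCNC), bound by the zinc-sensing factor MTF1, was present in 50.8% of members and 54.1% of all genes. By call it was present in 55.2% of members called higher, 50% of those called lower and 49.4% of those not called. The antioxidant response element core (TGACNNNGC) was present in 21.2% of members and 13.2% of all genes, with 20.7% of members called higher, 7.14% of those called lower and 23.6% of those not called. None of the 4 motifs is contained in another of them, and such matches describe letters only.

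All 172 solute carriers were tested with edgeR's quasi-likelihood test, adjusted over 12126 genes by the Benjamini-Hochberg method. At an adjusted p under 0.05, 40 were higher and 17 were lower in the KO-labelled libraries, and 115 were not called. That is 33.1% called, against a background of 27.3% of all tested genes. By direction, 23.3% of the solute carriers were called higher against 13.7% of all genes, and 9.88% were called lower against 13.7%. Genes that reached the same level minimum were called in 27.5% of cases. Changes of at least 2-fold were called for 24 higher and 13 lower members, 21.5% of them, against 16.4% of all genes. In bulk libraries fewer cells of a type and less RNA per cell cannot be told apart.

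Membership by level fixed part of these counts. The 8 members that reached 1 CPM in KO-labelled libraries alone were all called higher (Slc1a3, Slc2a13, Slc7a2, Slc17a1, Slc17a3, Slc18a1, Slc44a4 and Slc45a3), and the 4 that reached it in WT-labelled libraries alone were all called lower (Slc16a4, Slc16a9, Slc22a23 and Slc28a2). These had to differ to be members. Among the other 160, 32 (20%) were higher and 13 (8.13%) were lower, together 28.1%, against 24.0% of all genes that reached 1 CPM in both groups. Just inside the level minimum lay Slc17a3, whose third-highest library had 1.12 CPM before TMM scaling, and just outside lay Slc6a4, the serotonin transporter, whose third-highest had 0.910 CPM. Slc6a4 had 76 reads in the KO-labelled libraries together and none in the WT-labelled libraries.

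The median log2 fold change of the 172 was 0.11, against -0.035 over all tested genes, and the median size of change without regard to sign was 0.44 against 0.38. Values of the 2 groups did not overlap for 92 members (53.5%), against 47.6% of all genes. All 57 called members were among the 92, and 35 members whose groups did not overlap were not called. The solute carriers together made up 0.963%, 0.889% and 0.879% of TMM-scaled CPM in KO-labelled libraries and 0.886%, 0.769% and 0.787% in WT-labelled libraries. KO-labelled libraries varied less among themselves, with a median coefficient of variation over members of 12.9%, against 26.4% in WT-labelled libraries.

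**Figure D1:**
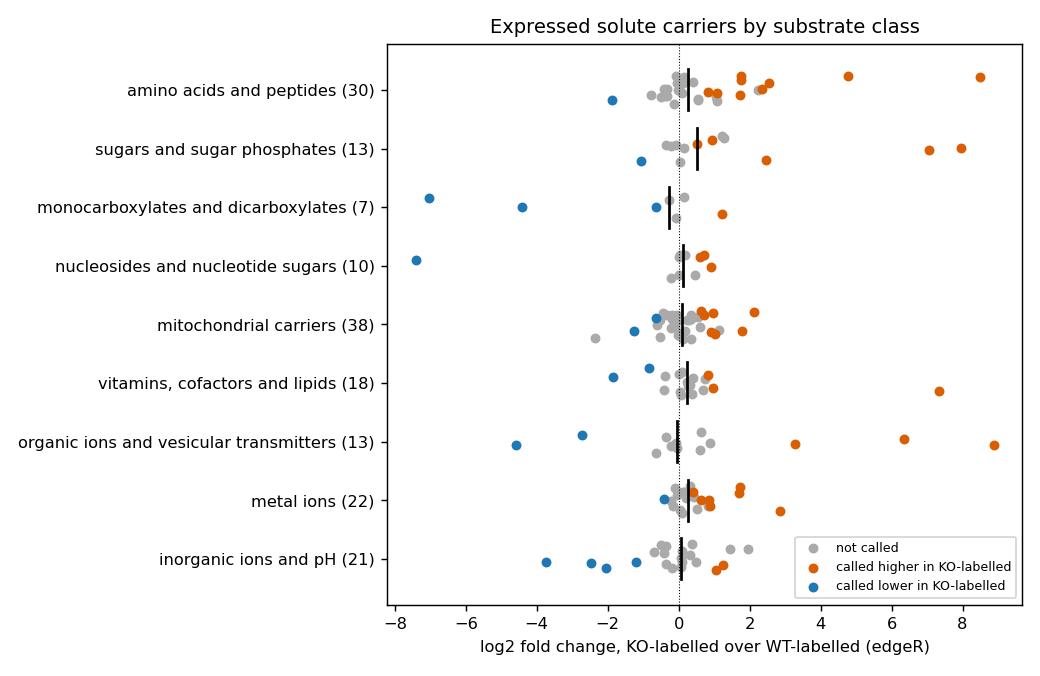
Log2 fold change (x axis, KO-labelled over WT-labelled) of each of the 172 expressed solute carriers, in rows by substrate class with the number of members in parentheses; points are members, colored by call, and black bars are class medians. Called members lie on both sides in every class, with 9 higher and 1 lower among amino acid carriers; points of the 3 members without a WT-labelled read depend on the fit's prior count.

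How many members passed depended on which libraries entered. With replicates 2 and 3 alone, 71 were higher and 39 lower, which is 64% of members against 52.9% of all genes. KO-labelled replicates 2 and 3 differed little beyond counting error, with a chi-square per degree of freedom of 1.44 over members. A fit on these replicates alone may therefore call too many genes, in every class below. Without WT-labelled replicate 1, 61 were higher and 29 lower (52.3% against 42.8% of all genes). Leaving out KO-labelled replicate 1 gave 21 higher and 14 lower (20.3% against 18.4%), and leaving out KO-labelled replicate 2 or 3 gave 23 higher and 10 lower (19.2% against 15.0% or 15.4%). Without WT-labelled replicate 2 the counts were 28 and 13 (23.8% against 19.8%), and without WT-labelled replicate 3 they were 23 and 11 (19.8% against 20%). Summing replicates 2 and 3 within both groups left 12 higher and 6 lower (10.5% against 8.44%). DESeq2 called 39% of members against 29.0% of all genes, and limma-voom 32.6% against 27.1%. Upper-quartile scaling, DESeq2 size factors and library totals called 32.6%, 33.7% and 30.8% of members against 27.5%, 27.4% and 24.8% of all genes. Without a low-count filter the shares were 31.4% and 19.4%, with a CPM filter 33.7% and 27.7%, and with KO-labelled replicates 2 and 3 summed 19.8% and 15.3%. No called member changed sign in any of these fits, and 29 of the 57 (19 higher and 10 lower) kept their call without any 1 library. The matching number over all genes was not counted.

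**Figure D2:**
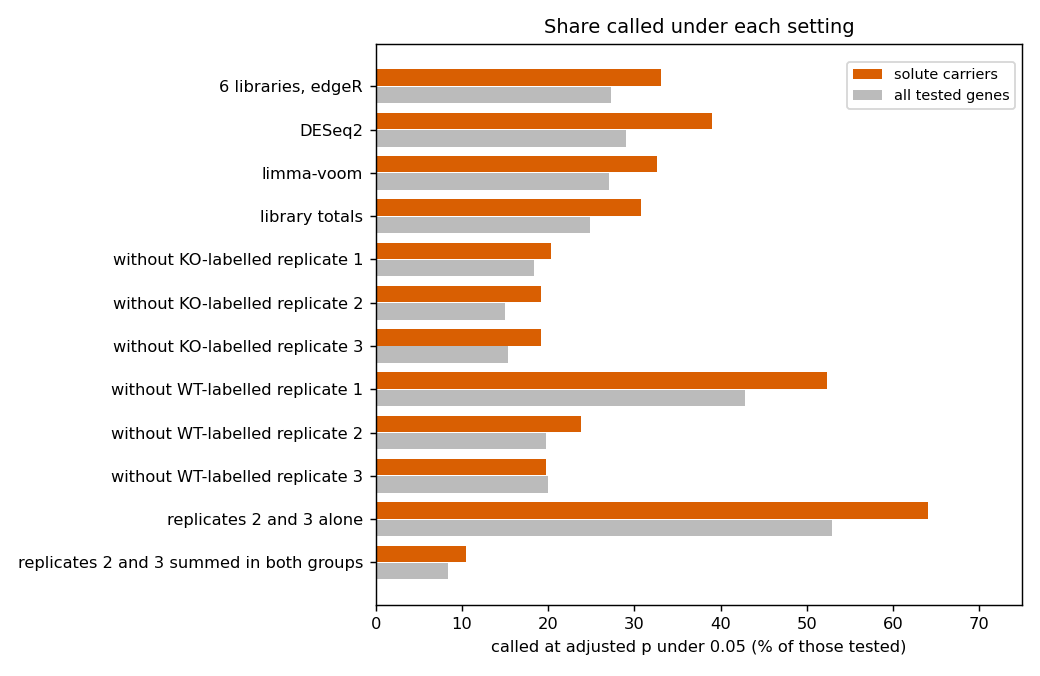
Share of members and of all tested genes called at an adjusted p under 0.05 (x axis, percent) under each setting (rows), with solute carriers in orange and all genes in grey. Both shares move together across settings, and the solute carriers lie above all genes except without WT-labelled replicate 3, where they are 19.8% and 20%.

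Under all 18 alternative fits 18 members were called, and 10 of them (Slc1a3, Slc2a13, Slc17a1, Slc18a1, Slc44a4, Slc45a3, Slc16a4, Slc16a9, Slc22a23 and Slc28a2) reach 1 CPM in one group only and so had to differ to be members. The other 8 comprise 6 higher and 2 lower members. How many of all tested genes were called under every fit was not counted, so no background share goes with these 18. In the fit with the fewest calls, replicates 2 and 3 summed in both groups, 10.5% of members and 8.44% of all genes were called. The members called in that fit are these same 18, so no other call of any class was kept there. Of all 18, 12 were higher: the amino acid and creatine carriers Slc36a4, Slc7a11, Slc1a3, Slc6a8 and Slc38a6, the sugar and inositol carriers Slc45a3 and Slc2a13, the zinc importer Slc39a4, the mitochondrial Slc25a44, and Slc44a4, Slc18a1 and Slc17a1. The other 6 were lower: Slc4a8, Slc25a15, Slc16a9, Slc16a4, Slc28a2 and Slc22a23. A further 11 lost their call only when replicates 2 and 3 were summed in both groups, with adjusted p-values of 0.054 to 0.1 by edgeR. They are Slc25a47, Slc25a24, Slc27a4, Slc35a3, Slc2a6, Slc39a6 and Slc43a3, which were higher, and Slc9a9, Slc45a4, Slc7a7 and Slc9a5, which were lower.

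**Figure D3:**
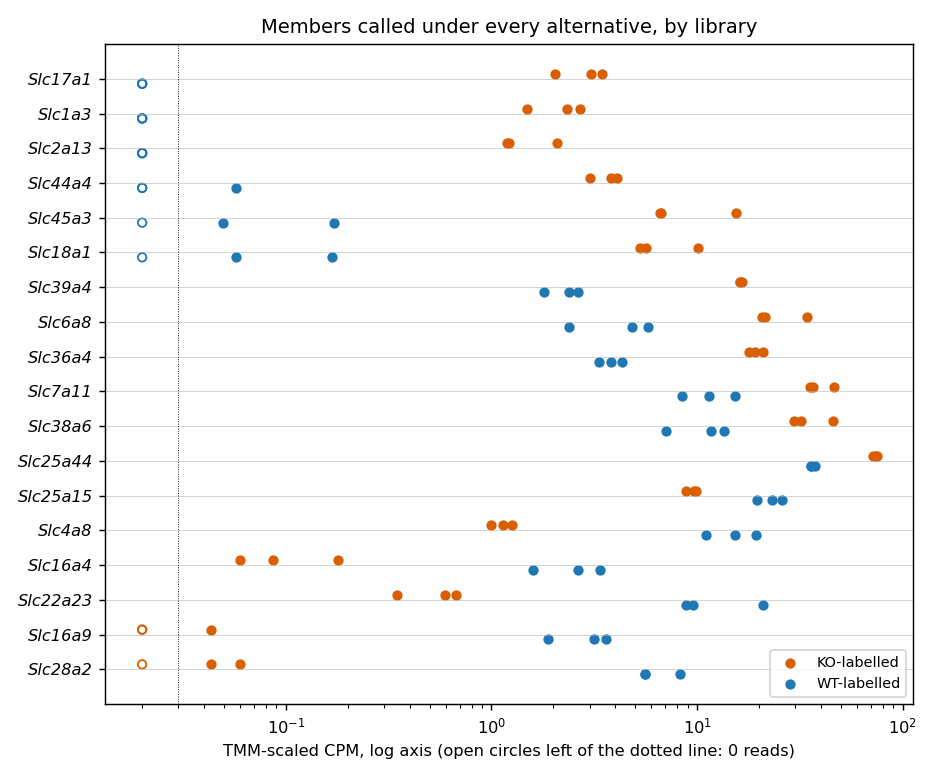
TMM-scaled CPM (x axis, log scale) of the 18 members called under every alternative fit, 1 row per member and 1 point per library, KO-labelled in orange and WT-labelled in blue; open circles are libraries with 0 reads. In every row the points of the 2 groups do not overlap, and 10 of the 18 members reach 1 CPM in one group only, so that they had to differ; Slc25a44 has KO-labelled points at 71.4 to 74.8 CPM and WT-labelled points at 35.7 to 37.4 CPM.

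By mean level, 37 members lay under 5 CPM, and 11 of these reach 1 CPM in one group only. Of the other 26, 4 were higher and 4 lower, with a median size of change of 1.1 on the log2 scale, against 0.976 over the 1484 tested genes of that range that met the same level minimum. Between 5 and 50 CPM lay 85 members, 1 of which reaches 1 CPM in one group only, and of the other 84 there were 17 higher and 6 lower with a median size of 0.423, against 0.393 over 5209 genes. At 50 CPM or more 11 of 50 members were higher and 3 lower with a median size of 0.29, against 0.28 over 4813 genes. Called members made up 28.0% of those at 50 CPM or more, against 22.1% of all genes of that range. Between 5 and 50 CPM the shares were 28.2% of members and 29.5% of all genes. Under 5 CPM they were 51.4% and 38.1%, with the 11 members that reach 1 CPM in one group only included. Among the 20 most abundant members per kilobase of exon, 5 (25%) were called, against 27.3% of all tested genes.

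**Figure D4:**
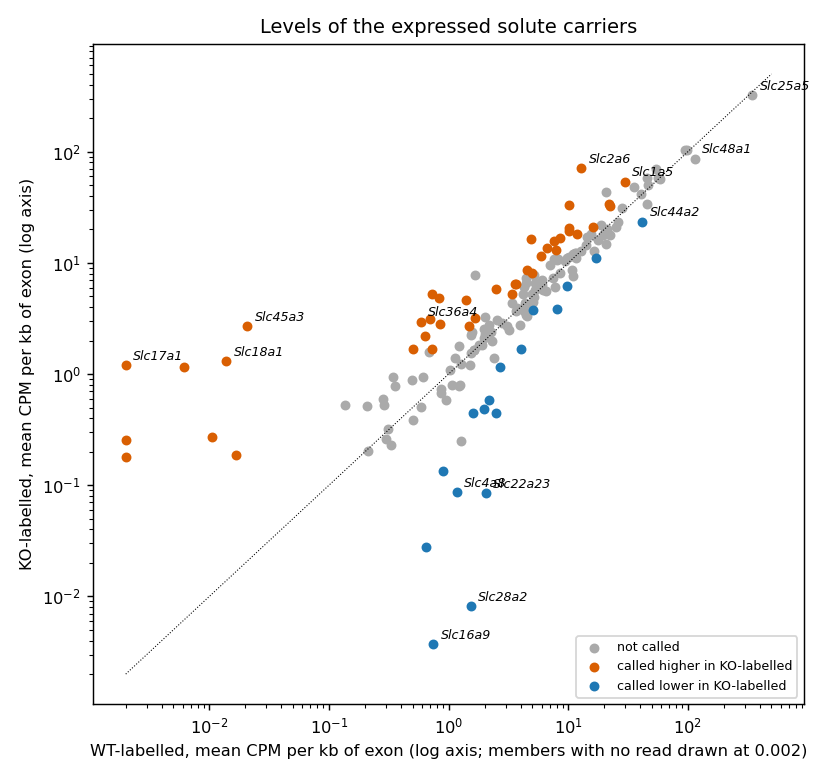
Mean level of each member in KO-labelled (y axis) and WT-labelled libraries (x axis), both as TMM-scaled CPM per kilobase of exon on log scales, colored by call, with the line of equality dotted. Abundant members lie near the line, Slc25a5 at 323 in KO-labelled and 346 in WT-labelled libraries, whereas Slc2a6 lies above it at 70.7 and 12.9; members with no WT-labelled read are drawn at the left edge.

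Markers of other cell states moved with the label. Summed monocyte-macrophage markers amounted to 2948 to 4336 CPM in KO-labelled and 1045 to 2475 CPM in WT-labelled libraries, with 3 of 6 markers called higher (Csf1r, Cd14 and Fcgr3). Most of these sums came from Ly6c2 and Itgam, whose groups overlapped and which were not called. Cd68 averaged 53.5 CPM in KO-labelled and 97.5 CPM in WT-labelled libraries, the other direction, and was not called. Markers of myeloid progenitors or leukemia summed to 1124 to 1494 CPM in KO-labelled and 2974 to 3341 CPM in WT-labelled libraries, with 4 of 7 lower and 1 higher. Ctsg, the most abundant, averaged 763 CPM in KO-labelled and 1502 CPM in WT-labelled libraries. In the same order, Cd34 averaged 1.63 and 613 CPM and Mpo 0.427 and 200 CPM, nearly absent from the KO-labelled group. Hoxa9 was the higher one (253 and 143 CPM), and Meis1 was not called (105 and 101 CPM). Megakaryocyte markers summed to 0.901 to 1.13 CPM in KO-labelled and 27.4 to 40.6 CPM in WT-labelled libraries, with 3 of 4 lower. Most of the WT-labelled sum came from Itga2b, at a mean of 26.6 CPM, whereas Pf4, Gp9 and Ppbp averaged 1.25, 3.45 and 0.573 CPM there. Hematopoietic markers were present throughout, with 5 of 5 detected, at 1601 to 2080 CPM in KO-labelled and 1148 to 1538 CPM in WT-labelled libraries. Some listed markers of B cells (Ms4a1 and Pax5), T cells (Cd3e and Cd8a), red cells (Alas2, Hba-a1 and Hbb-bs) and mast cells (Fcer1a, Cma1 and Tpsb2) had no read. The 6 red cell markers together summed to 1.01 to 1.56 CPM in KO-labelled and 0.943 to 1.89 CPM in WT-labelled libraries. Of these, Epor was called lower (0.246 CPM in KO-labelled and 0.928 CPM in WT-labelled libraries). Klf1 was not called (1.11 CPM in KO-labelled and 0.577 CPM in WT-labelled libraries). The B cell gene Cd79a had 7 reads, all in KO-labelled libraries. Mast cell or basophil markers summed to 11.6 to 13.6 CPM in KO-labelled and 21.1 to 36.4 CPM in WT-labelled libraries, with Mcpt8 called lower and Hdc not called. Ms4a2 was detected as well, at 0.840 CPM in KO-labelled and 1.27 CPM in WT-labelled libraries, and was not called. Cpa3 had 1 read in KO-labelled and 26 reads in WT-labelled libraries, too few to be tested. The 5 fibroblast or endothelium markers summed to 64.1 to 107 CPM in KO-labelled and 259 to 331 CPM in WT-labelled libraries, nearly all of it from Pecam1, which was lower (74.5 CPM in KO-labelled and 294 CPM in WT-labelled libraries) and which hematopoietic cells also express. Of the other 4, Pdgfrb was higher (3.48 CPM in KO-labelled and 0.392 CPM in WT-labelled libraries), Col1a1 was not called (0.766 CPM in KO-labelled and 0.922 CPM in WT-labelled libraries), and Cdh5 and Col1a2 had too few reads to be tested. Neutrophil markers summed to 2.64 to 8.16 CPM in KO-labelled and 0.501 to 2.88 CPM in WT-labelled libraries, and neither of the 2 that were tested was called. Of the 4 T cell markers Lck alone was detected beyond 1 read, and it was lower at 3.91 CPM in KO-labelled and 9.13 CPM in WT-labelled libraries. These differences and that in sex accompany every class described next, and their part in the solute carrier results was not tested. On the X chromosome lie 8 members, of which 1 was called (Slc6a8), against 27.3% of all tested genes, and none lies on the Y chromosome. So few genes do not allow shares to be compared, and the count does not test the part of donor sex.

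Of 30 amino acid carriers 9 (30%) were higher and 1 (3.33%) was lower in the KO-labelled libraries, against 13.7% of all genes in each direction, and the class median was 0.27 on the log2 scale. Among the 28 that reach 1 CPM in both groups, 7 were higher and 1 was lower. The cystine carrier Slc7a11, the glutamine carrier Slc1a5 and the creatine carrier Slc6a8 were among those higher, whereas the subunits of the leucine exchanger, Slc3a2 and Slc7a5, were not called. The counts were 13 higher and 3 lower without WT-labelled replicate 1, 6 to 7 higher and 1 lower without any other single library, and 16 higher and 4 lower with replicates 2 and 3 alone.

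Slc7a11, which imports cystine in exchange for glutamate and so feeds glutathione synthesis, stood at 46.5, 35.3 and 36.6 CPM in KO-labelled against 15.3, 8.50 and 11.5 CPM in WT-labelled libraries. All 3 KO-labelled libraries lay above all WT-labelled ones, a 3.36-fold ratio of means (log2 fold change 1.75, SE 0.24, adjusted p = 0.0024; chr3:49892526-50443614 of mm10, minus strand). Its partner Slc3a2, the common heavy subunit of several amino acid exchangers, had 201, 206 and 201 CPM in KO-labelled against 247, 175 and 176 CPM in WT-labelled libraries, with overlapping groups and an adjusted p of 0.94. Slc7a5, the light subunit that pairs with Slc3a2 to import leucine and other large neutral amino acids, had 98.1, 138 and 139 CPM in KO-labelled against 231, 129 and 144 CPM in WT-labelled libraries. Its groups overlapped, with WT-labelled replicate 1 the highest of the 6 libraries (log2 fold change -0.43, SE 0.25, adjusted p = 0.26).

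Slc36a4, a carrier of proline and tryptophan, had 17.9, 20.8 and 19.2 CPM in KO-labelled against 3.80, 3.33 and 4.32 CPM in WT-labelled libraries. The groups were far apart and tight, with a 5.06-fold ratio of means (log2 fold change 2.34, SE 0.19, adjusted p = 2.5e-04; chr9:15709738-15743361, plus strand). Slc6a8, the creatine transporter, had 34.2, 20.7 and 21.3 CPM in KO-labelled against 2.38, 5.80 and 4.82 CPM in WT-labelled libraries (log2 fold change 2.56, SE 0.38, adjusted p = 0.0032; chrX:73673150-73682502, plus strand). KO-labelled replicate 1 was the highest and WT-labelled replicate 1 the lowest of these values. Slc38a6, of the sodium-coupled neutral amino acid family, had 45.7, 31.9 and 29.7 CPM in KO-labelled against 7.09, 13.5 and 11.7 CPM in WT-labelled libraries (log2 fold change 1.73, SE 0.29, adjusted p = 0.0050), with the same libraries at the extremes. Of its 31-base words 40.7% also occur in transcripts of other genes, so its reads may be shared with them.

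Slc1a3, a sodium-driven glutamate importer, was near the detection limit. It had 1.49, 2.34 and 2.69 CPM in KO-labelled against 0, 0 and 0 CPM in WT-labelled libraries, that is 132 reads in the KO-labelled libraries together and 0 reads in the WT-labelled ones. Set against a floor of 3 reads per library it was at least 14.6-fold higher (adjusted p = 0.0029). Slc7a2, a cationic amino acid carrier that brings in arginine, averaged 2.49 CPM in KO-labelled and 0.0957 CPM in WT-labelled libraries (adjusted p = 0.013), and its call was lost without KO-labelled replicate 1 or 3 (adjusted p 0.0503 to 0.0546). Its fitted log2 fold change was 4.78 and became 8.73 without WT-labelled replicate 2, which held all of its WT-labelled reads, so that the second value depends on the fit's prior count.

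Slc1a5, a major glutamine importer, had 176, 248 and 246 CPM in KO-labelled against 146, 113 and 116 CPM in WT-labelled libraries. The groups did not overlap but replicate 1 lay nearest to the other group on both sides (log2 fold change 0.84, SE 0.18, adjusted p = 0.014), and the call was lost without KO-labelled replicate 2 or 3 or WT-labelled replicate 2 or 3 (adjusted p 0.0578 to 0.0630). Slc43a2, a facilitative carrier of leucine and other large neutral amino acids, had 205, 139 and 132 CPM in KO-labelled against 52.4, 90.6 and 84.2 CPM in WT-labelled libraries (log2 fold change 1.07, SE 0.26, adjusted p = 0.022). Here replicate 1 was the most distant on both sides, and the call was lost without KO-labelled replicate 1 or WT-labelled replicate 3 (adjusted p 0.0578 to 0.0725). Slc32a1, which loads GABA and glycine into synaptic vesicles, had 68.6, 35.2 and 34.3 CPM in KO-labelled against 6.09, 16.2 and 18.5 CPM in WT-labelled libraries (log2 fold change 1.76, SE 0.46, adjusted p = 0.028). The gene model Gm14205 covers 24.9% of its exons, strand use in counting is not given in the sources used here, and the call was lost without KO-labelled replicate 1, 2 or 3 or WT-labelled replicate 2 or 3 (adjusted p 0.0502 to 0.100).

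The single lower member was Slc7a7, a light subunit that exchanges cationic for neutral amino acids. It had 2.30, 2.03 and 1.43 CPM in KO-labelled against 6.47, 7.92 and 7.10 CPM in WT-labelled libraries (log2 fold change -1.89, SE 0.28, adjusted p = 0.0034, which became 0.064 with replicates 2 and 3 summed in both groups; chr14:54369442-54417780, minus strand), with every KO-labelled library below every WT-labelled one. Among the 20 members not called, Slc38a1, Slc38a10 and the taurine carrier Slc6a6 had the most reads, and Slc6a6 averaged 368 CPM in KO-labelled and 176 CPM in WT-labelled libraries without overlap (adjusted p = 0.090). Slc15a3, a peptide and histidine carrier of endosomes and lysosomes, averaged 42.7 ± 21.5 CPM in KO-labelled and 9.06 ± 7.26 CPM in WT-labelled libraries (SD, n = 3 each), also without overlap and without a call (adjusted p = 0.10 by edgeR). Its WT-labelled libraries had 0.751, 14.2 and 12.3 CPM, and 28.1% of its exons overlap Tmem132a.

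Sugar and sugar phosphate carriers gave 5 higher and 1 lower of 13 members (46.2% called, against 27.3% of all genes), with a class median of 0.52. Among the 11 that reach 1 CPM in both groups, 3 were higher and 1 was lower. The glucose carriers Slc2a1, Slc2a3 and Slc2a12 were outside the rule. The counts were 5 higher and 1 lower without WT-labelled replicate 1, 3 to 4 higher and 1 lower without any other single library, and 6 higher and 2 lower with replicates 2 and 3 alone. Slc2a6, a glucose transporter family member found on lysosomes, was the most abundant of the 13 per kilobase in KO-labelled libraries. It had 264, 212 and 205 CPM in KO-labelled against 14.9, 55.2 and 53.8 CPM in WT-labelled libraries, a 5.50-fold ratio (log2 fold change 2.46, SE 0.47, adjusted p = 0.0086, which became 0.074 with replicates 2 and 3 summed in both groups; chr2:27021363-27027998, minus strand). WT-labelled replicate 1 was lowest by far, and the KO-labelled libraries lay close together. Slc45a3, of a family of sugar transporters, had 15.4, 6.62 and 6.68 CPM in KO-labelled against 0, 0.172 and 0.0496 CPM in WT-labelled libraries (adjusted p = 0.0011; chr1:131962967-131982969, plus strand), so that it was nearly undetected in the WT-labelled group. Slc45a4, of the same family, was lower, with 35.4, 32.9 and 29.5 CPM in KO-labelled against 59.1, 70.0 and 74.9 CPM in WT-labelled libraries (log2 fold change -1.06, SE 0.14, adjusted p = 0.0020, which became 0.059 with replicates 2 and 3 summed in both groups).

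Slc2a13, which carries myo-inositol with protons, had 2.07, 1.21 and 1.19 CPM in KO-labelled against 0, 0 and 0 CPM in WT-labelled libraries. With 94 reads in the KO-labelled libraries and 0 reads in the WT-labelled ones, it was at least 10.0-fold higher against the floor of 3 reads per library (adjusted p = 0.0045). Slc2a9, a urate transporter, averaged 16.2 CPM in KO-labelled and 8.53 CPM in WT-labelled libraries (log2 fold change 0.93, SE 0.23, adjusted p = 0.022), and this call was lost without KO-labelled replicate 1, 2 or 3 or WT-labelled replicate 3 (adjusted p 0.0614 to 0.0785). Slc50a1, a glucose exporter of the SWEET family, averaged 47.5 CPM in KO-labelled and 33.0 CPM in WT-labelled libraries (log2 fold change 0.52, SE 0.16, adjusted p = 0.049), and its call, which had the highest adjusted p of the 57, was lost without KO-labelled replicate 1, 2 or 3 or WT-labelled replicate 1, 2 or 3 (adjusted p 0.0502 to 0.111). Slc37a4, which brings glucose 6-phosphate into the endoplasmic reticulum, averaged 32.4 CPM in KO-labelled and 29.0 CPM in WT-labelled libraries with overlapping groups (adjusted p = 0.52 by edgeR).

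Of 7 monocarboxylate and dicarboxylate carriers 1 was higher and 3 were lower (57.1% called, against 27.3% of all genes), with a class median of -0.27. The lower ones belong to Slc16, whose best known members move lactate and pyruvate with protons. Slc16a4 and Slc16a9 are members through the WT-labelled libraries alone, and among the other 5 there were 1 higher and 1 lower. The counts were 1 higher and 4 lower without WT-labelled replicate 1, 0 higher and 2 to 3 lower without any other single library, and 2 higher and 4 lower with replicates 2 and 3 alone. Slc16a9, a carnitine carrier in humans, had 1 read in the KO-labelled libraries and 173 reads in the WT-labelled ones. The ratio was 0.0057 with a 95% counting interval of 1.43e-04 to 0.032 (adjusted p = 9.9e-04; chr10:70245100-70285968, plus strand), and 23.5% of its exons overlap Gm7097 and Gm9877. Slc16a4 had 0.180, 0.0866 and 0.0597 CPM in KO-labelled against 1.59, 3.39 and 2.63 CPM in WT-labelled libraries (log2 fold change -4.43, SE 0.58, adjusted p = 0.0020). It too was nearly undetected in the KO-labelled group.

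Slc16a13 had 18.1, 16.4 and 14.3 CPM in KO-labelled against 27.0, 22.9 and 26.1 CPM in WT-labelled libraries (log2 fold change -0.64, SE 0.15, adjusted p = 0.022), and its call was lost without KO-labelled replicate 2 or 3 or WT-labelled replicate 3 (adjusted p 0.0623 to 0.104). Slc13a2, a sodium-driven carrier of succinate and citrate, was the higher member at 4.03 CPM in KO-labelled and 1.74 CPM in WT-labelled libraries (log2 fold change 1.21, SE 0.30, adjusted p = 0.024). It overlaps the antisense gene Slc13a2os over 26.2% of its exons, and the call was lost without KO-labelled replicate 1, 2 or 3 or WT-labelled replicate 2 or 3 (adjusted p 0.0516 to 0.107). The lactate carrier Slc16a1 averaged 139 CPM in KO-labelled and 125 CPM in WT-labelled libraries with overlapping groups and was not called (adjusted p = 0.72 by edgeR).

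Nucleoside and nucleotide sugar carriers showed 3 higher and 1 lower of 10 (40% called, against 27.3% of all genes). The lower one, Slc28a2, is a member through the WT-labelled libraries alone. A Golgi carrier, a nucleobase carrier and an equilibrative nucleoside carrier were higher, and a sodium-driven nucleoside carrier was lower. The class median was 0.12. The counts were 5 higher and 1 lower without WT-labelled replicate 1, 2 higher and 1 lower without any other single library, and 5 higher and 3 lower with replicates 2 and 3 alone. Slc28a2, which concentrates purine nucleosides and uridine with sodium, had 0, 0.0433 and 0.0597 CPM in KO-labelled against 8.26, 5.57 and 5.61 CPM in WT-labelled libraries. That is 2 reads against 408 reads, a ratio of 0.0048 with a 95% counting interval of 5.82e-04 to 0.0175 (adjusted p = 2.5e-04; chr2:122426477-122461137, plus strand). Of its 31-base words 46.3% occur in other transcripts. Slc35a3, which brings UDP-N-acetylglucosamine into the Golgi, had 91.5, 86.8 and 85.5 CPM in KO-labelled against 51.0, 55.4 and 54.0 CPM in WT-labelled libraries (log2 fold change 0.72, SE 0.11, adjusted p = 0.0033, which became 0.066 with replicates 2 and 3 summed in both groups). Replicates of each group were close and the groups did not overlap.

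Slc43a3, a carrier of purine nucleobases, had 71.0, 93.7 and 93.9 CPM in KO-labelled against 52.2, 42.1 and 41.9 CPM in WT-labelled libraries (log2 fold change 0.92, SE 0.16, adjusted p = 0.0065, which became 0.10 with replicates 2 and 3 summed in both groups). Slc29a1, the main equilibrative nucleoside transporter of the plasma membrane, averaged 72.7 CPM in KO-labelled and 47.7 CPM in WT-labelled libraries (log2 fold change 0.61, SE 0.18, adjusted p = 0.043), and its call was lost without KO-labelled replicate 1, 2 or 3 or WT-labelled replicate 2 or 3 (adjusted p 0.0756 to 0.128). The other 6 members, Slc35a1, Slc35a2, Slc35a4, Slc35a5, Slc29a2 and Slc29a3, were not called.

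Mitochondrial carriers were the largest class, with 38 members, of which 7 were higher and 2 lower. That is 23.7% called, against 27.3% of all genes. The class median was 0.08. Those called higher include carriers of branched-chain and basic amino acids, acylcarnitine, iron and nucleotides, and those called lower carry ornithine (Slc25a15) and aspartate and glutamate (Slc25a13). The counts were 13 higher and 6 lower without WT-labelled replicate 1, 3 to 5 higher and 1 to 2 lower without any other single library, and 14 higher and 9 lower with replicates 2 and 3 alone.

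Slc25a44, which takes branched-chain amino acids into mitochondria, had 74.6, 71.4 and 74.8 CPM in KO-labelled against 36.0, 37.4 and 35.7 CPM in WT-labelled libraries. This 2.02-fold difference had the smallest SE of the 172 members (log2 fold change 1.02, SE 0.10, adjusted p = 7.2e-04; chr3:88410498-88425139, minus strand). Slc25a15, which exchanges ornithine and citrulline for the urea cycle and proline synthesis, had 9.91, 9.65 and 8.83 CPM in KO-labelled against 25.8, 23.2 and 19.6 CPM in WT-labelled libraries (log2 fold change -1.27, SE 0.17, adjusted p = 0.0019; chr8:22375551-22398597, minus strand). Slc25a13, the aspartate-glutamate carrier citrin, averaged 42.4 CPM in KO-labelled and 65.4 CPM in WT-labelled libraries (log2 fold change -0.63, SE 0.16, adjusted p = 0.027), and its call was lost without KO-labelled replicate 1, 2 or 3 or WT-labelled replicate 3 (adjusted p 0.0593 to 0.0982).

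Slc25a47 and Slc25a29 are neighbors on chromosome 12, 163 bp apart, and both were higher. Slc25a47, known from liver, had 6.89, 6.02 and 6.74 CPM in KO-labelled against 1.88, 2.07 and 1.79 CPM in WT-labelled libraries (log2 fold change 1.78, SE 0.24, adjusted p = 0.0024, which became 0.054 with replicates 2 and 3 summed in both groups; chr12:108836046-108856815, plus strand). Slc25a29, a carrier of basic amino acids, had 8.20, 7.53 and 8.47 CPM in KO-labelled against 3.21, 0.689 and 1.54 CPM in WT-labelled libraries (log2 fold change 2.13, SE 0.51, adjusted p = 0.021; chr12:108825873-108835883, minus strand). WT-labelled values of Slc25a29 were more scattered: its call was lost without KO-labelled replicate 1, 2 or 3 or WT-labelled replicate 3 (adjusted p 0.0593 to 0.0776), and its log2 fold change was 2.84 without WT-labelled replicate 1.

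Slc25a24, which exchanges ATP-magnesium for phosphate, averaged 58.0 CPM in KO-labelled and 29.5 CPM in WT-labelled libraries (log2 fold change 0.97, SE 0.15, adjusted p = 0.0042, which became 0.058 with replicates 2 and 3 summed in both groups). Slc25a37, mitoferrin, which imports iron for heme and iron-sulfur clusters, averaged 78.6 CPM in KO-labelled and 47.5 CPM in WT-labelled libraries (log2 fold change 0.73, SE 0.15, adjusted p = 0.012), and the call was lost without KO-labelled replicate 2 or 3 (adjusted p 0.0542 to 0.0567). Slc25a20, which shuttles acylcarnitines for fatty acid oxidation, averaged 25.3 CPM in KO-labelled and 16.3 CPM in WT-labelled libraries (log2 fold change 0.64, SE 0.15, adjusted p = 0.020), and Slc25a33, a pyrimidine nucleotide carrier, averaged 16.4 CPM in KO-labelled and 8.61 CPM in WT-labelled libraries (log2 fold change 0.92, SE 0.27, adjusted p = 0.043). The call of Slc25a20 was lost without KO-labelled replicate 1, 2 or 3 or WT-labelled replicate 2 or 3 (adjusted p 0.0541 to 0.0750) and that of Slc25a33 without KO-labelled replicate 1, 2 or 3 or WT-labelled replicate 2 or 3 (adjusted p 0.0771 to 0.133).

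Slc25a5, Slc25a4 and Slc25a11, the most abundant members of the class per kilobase, were not called. Per kilobase of exon, Slc25a5 and Slc25a4, which exchange ADP for ATP, stood at 323 and 104 in KO-labelled and at 346 and 98.6 in WT-labelled libraries. By library, Slc25a5 had 602, 521 and 471 CPM in KO-labelled against 911, 383 and 412 CPM in WT-labelled libraries, with WT-labelled replicate 1 the highest (adjusted p = 0.87), and 49.4% of its 31-base words occur elsewhere in the transcriptome. Slc25a4 had 244, 251 and 241 CPM in KO-labelled against 266, 220.3 and 209 CPM in WT-labelled libraries, with overlap (adjusted p = 0.70). Slc25a11, the oxoglutarate-malate carrier, had 159.7, 142 and 141 CPM in KO-labelled against 108, 122 and 115 CPM in WT-labelled libraries, without overlap but not called (adjusted p = 0.062 by edgeR).

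Of 22 carriers of zinc and other metals 7 were higher and 1 was lower (36.4% called, against 27.3% of all genes), with a median of 0.25. Among the 12 members of Slc39 3 (25%) were higher and 0 were lower. Of all tested genes 13.7% were called higher and 27.3% in either direction. The counts were 9 higher and 1 lower without WT-labelled replicate 1, 2 to 4 higher and 0 lower without any other single library, and 10 higher and 1 lower with replicates 2 and 3 alone. The iron carriers Slc11a1, Slc11a2 and Slc40a1 were outside the rule.

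Slc39a4, a plasma membrane zinc importer, had 16.6, 16.2 and 16.2 CPM in KO-labelled against 1.79, 2.64 and 2.38 CPM in WT-labelled libraries. The 3 KO-labelled values were almost equal, a 7.18-fold ratio of means (log2 fold change 2.85, SE 0.22, adjusted p = 2.2e-04; chr15:76612383-76617384, minus strand). Slc39a6, also a zinc importer of the plasma membrane, had 159, 130.2 and 127 CPM in KO-labelled against 88.0, 92.0 and 89.8 CPM in WT-labelled libraries (log2 fold change 0.63, SE 0.13, adjusted p = 0.011, which became 0.097 with replicates 2 and 3 summed in both groups). Slc39a13, a zinc transporter of the secretory pathway, averaged 31.4 CPM in KO-labelled and 17.4 CPM in WT-labelled libraries (log2 fold change 0.85, SE 0.21, adjusted p = 0.023), and Slc30a1, the zinc exporter of the plasma membrane, averaged 14.3 CPM in KO-labelled and 7.71 CPM in WT-labelled libraries (log2 fold change 0.89, SE 0.20, adjusted p = 0.017). Both calls depended on which libraries entered: that of Slc39a13 was lost without KO-labelled replicate 1 or 2 or WT-labelled replicate 3 (adjusted p 0.0546 to 0.0692) and that of Slc30a1 without KO-labelled replicate 1, 2 or 3 or WT-labelled replicate 3 (adjusted p 0.0536 to 0.0731).

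The copper carriers Slc31a1 and Slc31a2 were both higher. Slc31a2 had 97.5, 52.1 and 52.9 CPM in KO-labelled against 7.68, 29.8 and 24.9 CPM in WT-labelled libraries, with replicate 1 the extreme on both sides (log2 fold change 1.70, SE 0.50, adjusted p = 0.044), and Slc31a1, the main copper importer, averaged 90.3 CPM in KO-labelled and 68.9 CPM in WT-labelled libraries (log2 fold change 0.39, SE 0.12, adjusted p = 0.045). The call of Slc31a2 was lost without KO-labelled replicate 1, 2 or 3 or WT-labelled replicate 2 or 3 (adjusted p 0.0646 to 0.147) and that of Slc31a1 without KO-labelled replicate 1, 2 or 3 or WT-labelled replicate 2 or 3 (adjusted p 0.0548 to 0.141). The Slc41 magnesium carriers split: Slc41a3 had 6.76, 4.03 and 3.82 CPM in KO-labelled against 1.17, 1.21 and 1.99 CPM in WT-labelled libraries (log2 fold change 1.74, SE 0.39, adjusted p = 0.016), and Slc41a1 averaged 18.4 CPM in KO-labelled and 24.8 CPM in WT-labelled libraries (log2 fold change -0.43, SE 0.13, adjusted p = 0.043). The call of Slc41a3 was lost without KO-labelled replicate 1 or WT-labelled replicate 2 (adjusted p 0.0582 to 0.0593) and that of Slc41a1 without KO-labelled replicate 1, 2 or 3 or WT-labelled replicate 2 or 3 (adjusted p 0.0809 to 0.190).

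Slc39a7, which releases zinc from the endoplasmic reticulum, was the most abundant of the class per kilobase, at 104 in KO-labelled and 94.5 in WT-labelled libraries. It was not called (adjusted p = 0.48 by edgeR), and 80.7% of its exons overlap the gene model Gm20427. Slc39a8, an importer of zinc and manganese, was among those just outside the threshold, at 6.75 CPM in KO-labelled and 3.77 CPM in WT-labelled libraries (adjusted p = 0.0513). Just inside it lay Slc50a1 at 0.049.

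Carriers of inorganic ions and pH gave 2 higher and 4 lower of 21 (28.6% called, against 27.3% of all genes), with a median of 0.05. The lower ones were 2 of 5 sodium-proton exchangers (Slc9), 1 of 3 bicarbonate carriers (Slc4) and Slc24a5, and Slc12a4, a cation-chloride carrier, was among the higher ones. The counts were 3 higher and 8 lower without WT-labelled replicate 1, 0 to 2 higher and 3 to 4 lower without any other single library, and 4 higher and 9 lower with replicates 2 and 3 alone. Slc4a8, which brings in bicarbonate and sodium in exchange for chloride and so raises cell pH, had 1.26, 0.996 and 1.13 CPM in KO-labelled against 11.0, 15.2 and 19.3 CPM in WT-labelled libraries. The KO-labelled mean was 0.0745 times the WT-labelled mean (log2 fold change -3.74, SE 0.29, adjusted p = 2.3e-04; chr15:100761747-100823968, plus strand). Slc9a9, a sodium-proton exchanger of endosomes, had 1.89, 3.25 and 2.51 CPM in KO-labelled against 7.97, 18.4 and 16.2 CPM in WT-labelled libraries (log2 fold change -2.47, SE 0.38, adjusted p = 0.0040, which became 0.059 with replicates 2 and 3 summed in both groups; chr9:94669909-95230445, plus strand). Slc9a5, another exchanger of that family, had 2.21, 1.90 and 3.52 CPM in KO-labelled against 6.30, 11.3 and 13.7 CPM in WT-labelled libraries (log2 fold change -2.04, SE 0.39, adjusted p = 0.0086, which became 0.072 with replicates 2 and 3 summed in both groups). For all 3 the groups did not overlap, and WT-labelled replicate 1 was the lowest of its group.

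Slc24a5, an exchanger of potassium and calcium for sodium known from pigment cells, had 3.79, 2.21 and 2.09 CPM in KO-labelled against 8.01, 5.17 and 5.56 CPM in WT-labelled libraries (log2 fold change -1.21, SE 0.34, adjusted p = 0.039). It overlaps Myef2 over 39.5% of its exons, and the call was lost without KO-labelled replicate 2 or 3 or WT-labelled replicate 2 or 3 (adjusted p 0.0617 to 0.149). Slc12a4, which exports potassium with chloride, averaged 24.9 CPM in KO-labelled and 10.6 CPM in WT-labelled libraries (log2 fold change 1.24, SE 0.28, adjusted p = 0.017), and its call was lost without KO-labelled replicate 1 or WT-labelled replicate 3 (adjusted p 0.0501 to 0.0665).

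Vitamin, cofactor and lipid carriers showed 3 higher and 2 lower of 18 (27.8% called, against 27.3% of all genes), with a median of 0.24. Among the 17 that reach 1 CPM in both groups, 2 were higher and 2 lower. The counts were 7 higher and 2 lower without WT-labelled replicate 1, 2 higher and 0 to 1 lower without any other single library, and 8 higher and 4 lower with replicates 2 and 3 alone. Slc44a4, a choline-like family member that carries thiamine pyrophosphate in human colon cells, had 3.02, 3.81 and 4.06 CPM in KO-labelled against 0, 0.0574 and 0 CPM in WT-labelled libraries. These are 223 reads in KO-labelled and 1 read in WT-labelled libraries, a ratio of 219 with a 95% counting interval of 39.0 to 8702 (adjusted p = 6.5e-04). Slc27a4, which takes up long-chain fatty acids, had 57.9, 48.2 and 46.9 CPM in KO-labelled against 29.9, 25.7 and 22.4 CPM in WT-labelled libraries (log2 fold change 0.97, SE 0.16, adjusted p = 0.0047, which became 0.059 with replicates 2 and 3 summed in both groups; chr2:29802634-29817522, plus strand).

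Slc44a2, a choline carrier, was lower at 234, 185 and 189 CPM in KO-labelled against 296, 387 and 405 CPM in WT-labelled libraries (log2 fold change -0.84, SE 0.18, adjusted p = 0.013), and the call was lost without KO-labelled replicate 2 or 3 (adjusted p 0.0661 to 0.0694). The riboflavin carriers split, with Slc52a2 at 36.8, 36.0 and 33.7 CPM in KO-labelled against 26.2, 18.0 and 15.7 CPM in WT-labelled libraries (log2 fold change 0.83, SE 0.21, adjusted p = 0.025) and Slc52a3 at 1.71, 0.823 and 1.13 CPM in KO-labelled against 2.21, 6.20 and 4.82 CPM in WT-labelled libraries (log2 fold change -1.84, SE 0.49, adjusted p = 0.031). The call of Slc52a2 was lost without KO-labelled replicate 1, 2 or 3 or WT-labelled replicate 2 or 3 (adjusted p 0.0666 to 0.0829) and that of Slc52a3 without KO-labelled replicate 1, 2 or 3 or WT-labelled replicate 2 or 3 (adjusted p 0.0543 to 0.117). Slc48a1, which moves heme out of endolysosomes, was the third most abundant member per kilobase. It had 248, 233 and 233 CPM in KO-labelled against 425, 255 and 269.8 CPM in WT-labelled libraries, without overlap and without a call (adjusted p = 0.20 by edgeR).

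Organic ion and vesicular transmitter carriers showed 3 higher and 2 lower of 13 (38.5% called, against 27.3% of all genes), with a median of -0.06. Of the 5 called, 4 (Slc17a1, Slc17a3, Slc18a1 and Slc22a23) are members through one group only, and Slc22a17 was the only one called among the other 9. The counts were 5 higher and 3 lower without WT-labelled replicate 1, 2 higher and 1 to 2 lower without any other single library, and 6 higher and 3 lower with replicates 2 and 3 alone. Slc18a1, which loads monoamines into secretory granules, had 10.1, 5.63 and 5.25 CPM in KO-labelled against 0.167, 0.0574 and 0 CPM in WT-labelled libraries (adjusted p = 0.0011; chr8:69037711-69089235, minus strand). Slc17a1 and Slc17a3, organic anion and urate carriers known from kidney, lie 7034 bp apart on chromosome 13, and both were higher. Slc17a1 had 2.03, 3.46 and 3.04 CPM in KO-labelled against 0, 0 and 0 CPM in WT-labelled libraries, with 176 reads against 0 reads, at least 19.1-fold higher against the floor (adjusted p = 0.0020).

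Slc17a3 had 1.53, 1.17 and 1.07 CPM in KO-labelled against 0.292, 0 and 0.0496 CPM in WT-labelled libraries (log2 fold change 3.28, SE 0.84, adjusted p = 0.027). Its call was lost without KO-labelled replicate 1, 2 or 3 or WT-labelled replicate 2 or 3 (adjusted p 0.0555 to 0.0940), and its log2 fold change was 5.28 without WT-labelled replicate 1, which held most of its WT-labelled reads. Slc22a23, an orphan member of the organic ion family, had 0.676, 0.346 and 0.597 CPM in KO-labelled against 20.9, 9.53 and 8.79 CPM in WT-labelled libraries (log2 fold change -4.59, SE 0.49, adjusted p = 8.4e-04; chr13:34179158-34345182, minus strand). Slc22a17, a receptor for lipocalin 2, averaged 0.610 CPM in KO-labelled and 4.09 CPM in WT-labelled libraries (log2 fold change -2.71, SE 0.71, adjusted p = 0.029). Its call was lost without KO-labelled replicate 2 or 3 or WT-labelled replicate 2 or 3 (adjusted p 0.0883 to 0.103), and its log2 fold change was -3.51 without KO-labelled replicate 1. The ergothioneine carrier Slc22a4 had 17.3, 21.2 and 21.6 CPM in KO-labelled against 14.4, 14.6 and 10.5 CPM in WT-labelled libraries, without overlap and without a call (adjusted p = 0.056 by edgeR).

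Transporters named outside this pattern were listed alongside, among them organic anion carriers (Slco), sphingosine phosphate and lysosomal lipid exporters (Spns), sideroflexins, lysosomal carriers and lettered Slc35 genes. Of 56 listed symbols 53 were in the table and 41 were tested, with 4 higher, 7 lower and 30 not called. That is 26.8% called, against 27.3% of all genes, and their median log2 fold change was -3.46e-04. The higher ones were Slco4a1 at 177 CPM in KO-labelled and 43.9 CPM in WT-labelled libraries (log2 fold change 2.01, SE 0.19, adjusted p = 4.8e-04), Npc1, the lysosomal cholesterol exporter, at 260.1 CPM in KO-labelled and 120.3 CPM in WT-labelled libraries, Mfsd1 at 243 CPM in KO-labelled and 141 CPM in WT-labelled libraries and Spns1 at 74.6 CPM in KO-labelled and 44.2 CPM in WT-labelled libraries. Among the lower ones, Spns2, which exports sphingosine 1-phosphate, averaged 2.49 CPM in KO-labelled and 145 CPM in WT-labelled libraries (log2 fold change -5.86, SE 0.42, adjusted p = 1.6e-04), and Slco5a1 averaged 0.0583 CPM in KO-labelled and 23.6 CPM in WT-labelled libraries (log2 fold change -8.40, SE 0.48, adjusted p = 7.8e-05). Spns3, Slco3a1, Slc35b4, Slc35e4 and Sfxn5 were lower as well.

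Of the 57 called members 7 are among the 19 solute carriers that overlap another gene's exons or share 31-base words with other transcripts over at least 20% of their length. Without these 19 there remained 36 higher and 14 lower members. Overlap was not measured for all genes, so no background share goes with these counts. The 29 members that kept their call without any 1 library came from all 9 substrate classes, and 10 of them reach 1 CPM in one group only.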

How the data were processed

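RNA sequencing libraries were prepared with a stranded mRNA kit, per the labels' protocols. The deposited values are raw counts per gene and library, which the authors made, per the submitters' processing notes, with FastQC 0.11.7, HISAT2 2.0.5 on mm10 and featureCounts 1.5.2. Neither the annotation nor the strand setting is given in the sources used here.

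Testing used edgeR 4.0.16 under R 4.3.3, with TMM scaling, the default low-count filter (12126 genes) and the robust quasi-likelihood test for KO-labelled minus WT-labelled libraries. P-values were adjusted over all genes by the Benjamini-Hochberg method and called under 0.05. Levels are TMM-scaled CPM. The results were recomputed with 3 other scalings, with DESeq2 1.42.0 and limma-voom (limma 3.58.1), with other filters, a replicate block, stricter thresholds, summed replicates and each library left out. All tools were tested on simulated data. Positions, exon lengths and overlaps came from the GENCODE annotation, and 31-base words were matched on both strands. Intervals and floors cover counting error only and do not allow for reads from another library.

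Members, classes and lists were chosen with earlier results of these data known. Members named by library were up to 3 called per class in order of p, the 10 largest rises and 10 largest falls with a group mean of at least 5 CPM, the 5 most abundant per kilobase, Slc3a2, Slc7a5 and Slc7a11, and those beside the level minimum; the other called members, and a few not called, were named after their values were seen. A few genes are counted but not reported here by name. Adgre1 and Ly6g, markers of macrophages and neutrophils, were not analysed here. The labels name no pairing, and same-numbered libraries of the groups did not deviate together. Whether they shared a day or preparation cannot be told from this.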

Additional observations from a re-analysis of the deposited data

How the results depend on the processing

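The 40 higher and 17 lower solute carriers became 48 and 19 with DESeq2, 41 and 15 with limma-voom, 37 and 16 with library totals, 39 and 17 with upper-quartile scaling, 41 and 17 with DESeq2 size factors or with a CPM filter, 38 and 16 with no low-count filter, and 40 and 17 with non-robust dispersion. They became 24 and 10 with KO-labelled replicates 2 and 3 summed, 12 and 6 with those replicates summed in both groups, 71 and 39 with replicates 2 and 3 alone, 18 and 10 at an adjusted p under 0.01, and 24 and 13 at 2-fold or more. A CPM minimum of 5 left 32 and 13, as did the demand for 1 CPM in each group. Leaving out each library gave 21 to 61 higher and 10 to 29 lower. Calls over all genes were 3316, and became 1927, 1061, 6458, 1694 and 1991 with KO-labelled replicates summed, both groups summed, replicates 2 and 3 alone, the stricter p and the 2-fold demand, and ran from 1855 to 5280 with 1 library left out. With the replicate number as a block, 24 solute carriers were higher, 11 were lower and 2023 genes were called; same-numbered libraries did not deviate together (r = -0.0519, -0.112 and 0.0427), so the block was not used elsewhere. Among the members named by library, those not called changed sign in 8 cases. Slc25a5 (log2 fold change -0.10) had 0.027 with limma-voom, 0.016 with the replicate block and 0.30 with replicates 2 and 3 alone. With 1 library left out it had -0.318 to 0.42 (the highest without WT-labelled replicate 1). Slc3a2 (0.02) had -0.027 with both groups summed and -0.069 to 0.212 with 1 library left out (-0.069 and -0.060 when it was WT-labelled replicate 2 or 3). Slc7a5 (-0.43) had 0.0030 with replicates 2 and 3 alone. Sign changes of the other members not called, several of which lay near a log2 fold change of 0, were not counted. The cause was not tested. With 1 library left out, the smaller group has 2 libraries, and for members under about 5 CPM the counts themselves limit the precision.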
